A study of Drosophila melanogaster with 2 samples.

Results

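CG32772-eGFP binding was examined at 10 genes of the epidermal growth factor receptor (EGFR) and Ras pathway of Drosophila melanogaster, of which 9 are named here: Egfr, spi, aos, drk, Sos, Ras85D, Raf, pnt and aop. They were chosen by name as core members of the pathway, with earlier results of these data known. They are 10 of the 13968 protein-coding genes annotated on the main chromosome arms. A site was assigned to a gene when its summit, the base of highest signal in a peak, lay within 500 bp of an annotated transcription start site (a promoter summit) or, separately, anywhere in the gene body or the 5 kb on either side (the window). The windows of 8 of the 10 genes held 41 of the 4699 sites of the authors' conservative joint list, and those of Ras85D and Sos held 0.

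The study was a chromatin immunoprecipitation with sequencing (ChIP-seq) of CG32772, a predicted zinc finger protein. Whole embryos aged 0 to 24 h of 1 transgenic line expressed CG32772 fused to eGFP, a green fluorescent protein, and an antibody against GFP was used on chromatin sonicated to 200 to 800 bp. The 2 biological replicates form a single group, and the data hold no contrast between conditions. The fusion protein came from an inserted transgene, and embryos of every age in that span and all their cell types were mixed, so a site cannot be assigned to a tissue or stage.

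EGFR signalling in the fly embryo begins with a membrane-bound ligand such as Spitz, encoded by spi, which is cut into its active form. The active receptor recruits the adaptor Drk and the exchange factor Sos, which load Ras85D with GTP, and Ras then switches on the kinase Raf and the MAP kinase cascade below it. The cascade ends in the nucleus, where the ETS activator Pointed (pnt) and the ETS repressor Anterior open, also called Yan (aop), compete for target genes, and Argos (aos) is a secreted inhibitor that sequesters Spitz. The pathway patterns the ventral ectoderm, the tracheae and the muscles of the embryo.

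The sequences under the sites show the base composition around the summits, not which bases were bound or whether binding was direct. Of the 41, 10 are printed here as the 101 bp around the summit, plus strand, from the RefSeq copy of the dm6 genome. Capitals mark every run of at least 8 consecutive A or T. The first set is the 3 summits of spi, shown because each lies at a different start site of the gene, at chr2L:19577396-19577496, chr2L:19575693-19575793 and chr2L:19572793-19572893.
spi site 1: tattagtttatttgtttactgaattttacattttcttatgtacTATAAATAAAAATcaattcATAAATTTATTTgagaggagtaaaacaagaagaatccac
spi site 2: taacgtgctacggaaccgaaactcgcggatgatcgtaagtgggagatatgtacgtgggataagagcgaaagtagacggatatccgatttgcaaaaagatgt
spi site 3: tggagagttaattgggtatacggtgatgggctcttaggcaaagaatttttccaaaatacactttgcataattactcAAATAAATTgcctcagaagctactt

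The 3 summits of aos are printed next because they include the most A and T rich of the 41 sites, aos site 2, with 85.1% A and T and 5 such runs, the longest of 17 bp. They lie at chr3L:16486613-16486713, chr3L:16483833-16483933 and chr3L:16480517-16480617.
aos site 1: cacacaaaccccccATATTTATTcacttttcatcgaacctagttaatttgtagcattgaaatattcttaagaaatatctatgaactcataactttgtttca
aos site 2: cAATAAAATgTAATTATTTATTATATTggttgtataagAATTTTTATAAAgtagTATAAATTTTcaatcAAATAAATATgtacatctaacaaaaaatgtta
aos site 3: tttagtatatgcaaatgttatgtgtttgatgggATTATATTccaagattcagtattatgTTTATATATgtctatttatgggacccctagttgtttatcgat

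The strongest sites of Raf, aop and pnt complete the set. The Raf sites lie at chrX:2297678-2297778 and chrX:2300646-2300746, the aop site at chr2L:2163603-2163703 and the pnt site at chr3R:23326464-23326564. Of these 4, the strongest, Raf site 3, has no run of 8 A or T, and neither has aop site 7, with 48.5% A and T.
Raf site 3: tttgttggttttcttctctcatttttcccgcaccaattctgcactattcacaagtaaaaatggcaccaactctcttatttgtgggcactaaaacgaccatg
Raf site 5: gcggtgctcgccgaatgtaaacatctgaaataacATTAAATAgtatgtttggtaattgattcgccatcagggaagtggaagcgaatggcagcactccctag
aop site 7: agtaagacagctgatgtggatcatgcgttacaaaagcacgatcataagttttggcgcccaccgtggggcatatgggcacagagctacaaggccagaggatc
pnt site 4: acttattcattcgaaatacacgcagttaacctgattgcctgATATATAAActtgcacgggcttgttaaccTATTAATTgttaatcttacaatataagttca

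Strength is given here as the signal that the authors' peak caller wrote for each peak, used only to rank and describe peaks. Signal and rank are from the conservative joint list unless a library is named, and rank 1 is the strongest of the 4699 sites. Replicate 1's own thresholded list held 3012 sites on the arms and replicate 2's held 3537, and each library also had a longer ranked list of 113626 and 77048 calls. The read depth behind the lists is unknown, so a site missing from a list cannot be told apart from a site that was below its threshold.

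A promoter summit was found at 3 of the 10 genes, spi, aos and aop, against 17.1% of all protein-coding genes. The same 3 genes had one in replicate 1's own list, where the share of all genes was 12.9%, and in replicate 2's own list, where it was 14.1%. Their 5 promoter summits all lay upstream of the start site concerned, by 131 to 294 bp. Summits just beyond the limit of 500 bp were those of Raf, 795 bp past its first start, and of aop, 907 bp past and 914 bp before its first start.

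A gene body summit was found at 8 of the 10 genes, against 12.0% of all protein-coding genes, and the same count was reached in replicate 1 (8.52% of all genes) and in replicate 2 (9.47%). With the 5 kb flanks, the count stayed at 8 of 10, against 45.3% of all genes, 36.1% in replicate 1's list and 38.9% in replicate 2's. Gene body length ranges from 2.51 kb for Ras85D to 55.9 kb for pnt among the 10, and longer genes can hold more summits, so the densities further on are set against genes of like length. By place, 26 of the 41 sites lay in introns, 7 in the upstream flank, 5 in promoters, 2 in a 5′ UTR and 1 in the downstream flank. Only 9 of the 41 (22.0%) lay within 500 bp of any annotated start site, coding or not, compared with 43.0% of the other 4658 sites.

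**Figure D1:**
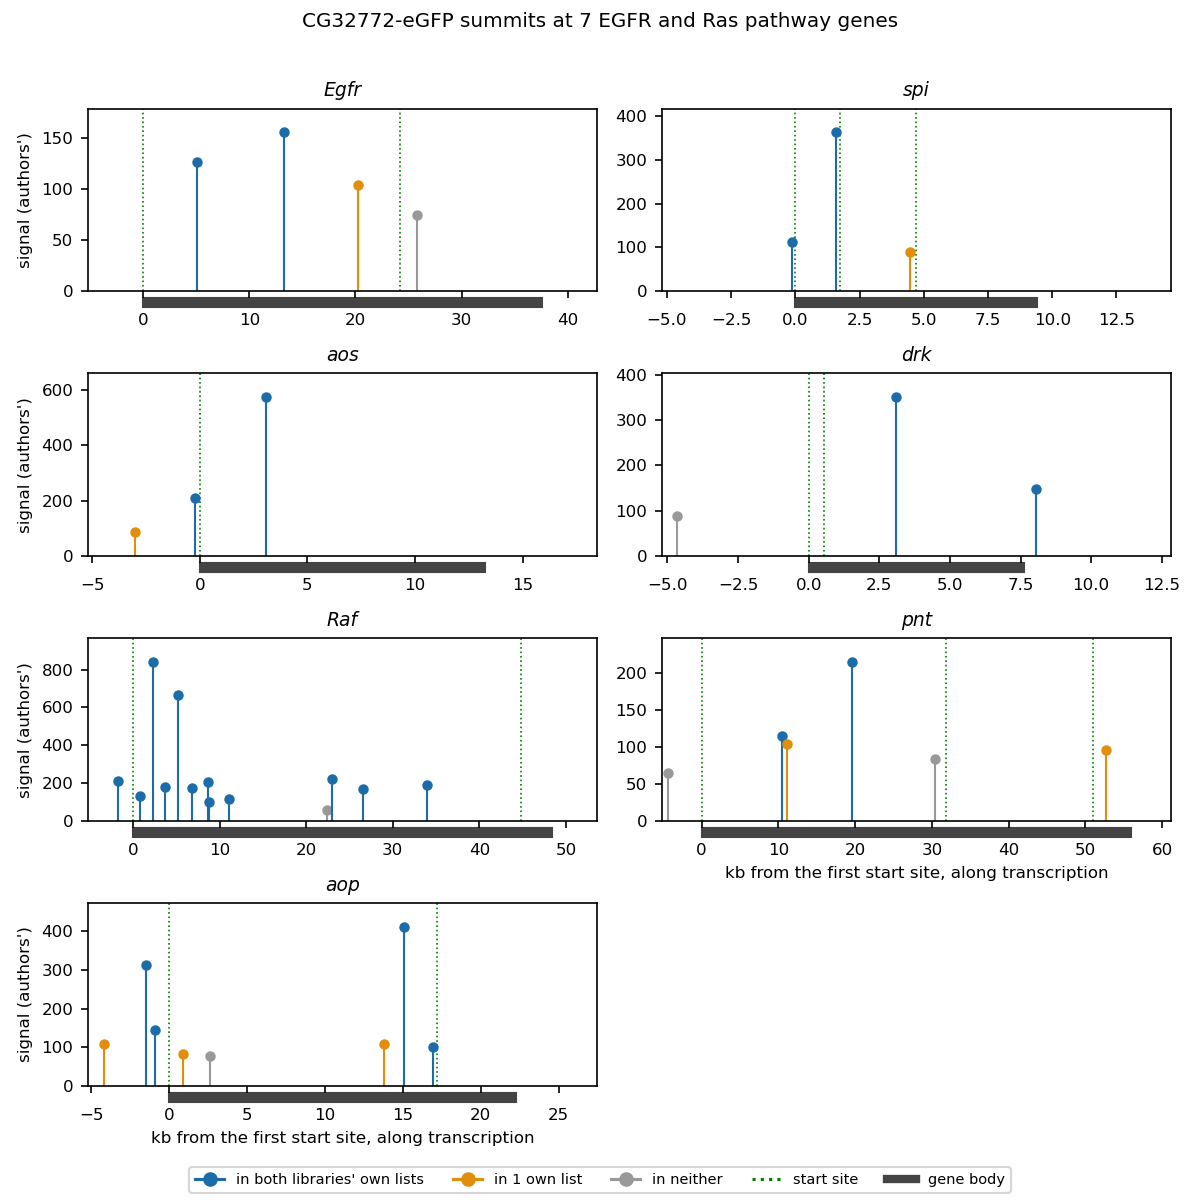
Position (x axis, kb from the first start site in the direction of transcription) and authors' signal (y axis, no unit) of the 40 summits at 7 of the genes. Colour gives the number of libraries whose own thresholded list holds the site, dotted lines mark start sites and the bar is the gene body; 9 of the 13 Raf sites lie within 12.8 kb around the first start, and each start site of spi has a summit just upstream.

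The receptor gene Egfr carried 4 summits, all in introns and none at either of its start sites. Egfr lies on chromosome arm 2R at 21522420 to 21559977, plus strand, and its start sites are 24.223 kb apart. The signals ran from 74.8 to 156 with a median of 116, where the list's median was 115. The strongest, Egfr site 2 (rank 1576), had a signal of 68.7 in replicate 1 and 80.3 in replicate 2, and it lay 10992 bp before the inner Egfr start but 1144 bp from the start of CG30286, a gene that lies within Egfr on the other strand. Of the 4 summits, replicate 1's own list held 2 and replicate 2's held 3, and the strongest was in both.

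The ligand gene spi had a summit at each of its 3 start sites. The gene lies on chromosome arm 2L at 19567900 to 19577315, minus strand. Spi site 2, at the middle start, was the strongest with a signal of 363 (rank 401), and it had 206 in replicate 1 and 167 in replicate 2. Spi site 1, 131 bp upstream of the first start, had a signal of 113, with 53.6 in replicate 1 and 51.0 in replicate 2. Spi site 3, 233 bp upstream of the innermost start, had 88.3, with 51.1 in replicate 1 and 39.4 in replicate 2, whose own list did not hold it. In sequence the 3 differ: site 1 has 79.2% A and T, site 3 has 64.4% and site 2, the strongest, has 54.5%.

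The inhibitor gene aos had 3 summits, 1 in an intron, 1 at the promoter and 1 further upstream. It lies on chromosome arm 3L at 16470386 to 16483650, minus strand, within CG33158, so its sites cannot be told apart from sites of CG33158 by position. Aos site 3, in an intron 3083 bp past the start, had a signal of 574 and rank 166, with 305 in replicate 1 and 277 in replicate 2. Aos site 2, 233 bp upstream of the start, had 210, with 94.3 and 108. Aos site 1, 3013 bp upstream, had 88.1, with 50.2 and 37.2, and it was missing from replicate 2's own list. The intronic site was thus stronger than the promoter site in the joint list and in each library.

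The adaptor gene drk had 3 summits in its window and none at its own start sites. It lies on chromosome arm 2R at 13495222 to 13502841, minus strand. Drk site 2, in an intron, had a signal of 350 (rank 431), with 166 in replicate 1 and 187 in replicate 2. By distance all 3 lay nearer to the starts of neighbours. Drk site 2 lay 2549 bp from the nearest drk start but 877 bp from the start of mars. Drk site 1 (signal 88.5) lay 69 bp from the start of mEFTu1, a mitochondrial translation elongation factor gene. It was in neither own list, with 39.2 in replicate 1 and 41.0 in replicate 2. Drk site 3 (signal 148) lay 77 bp from the start of bbc. Sites were counted for every gene whose window covers them, so these 3 also count for those neighbours.

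Sos, the exchange factor gene on chromosome arm 2L at 13813816 to 13819824, had 0 summits in its window of the joint list and in each library's own list. The strongest call in the window in the ranked lists had a signal of 24.6 (rank 15811) in replicate 1 and 32.6 (rank 7171) in replicate 2. The own lists' median signals were 77.6 and 77.8, but their lowest were 2.11 and 2.01. Signal alone therefore does not place the Sos calls below the range of those lists. A count of 0 in its window allows up to 0.23 summits per kb by the exact 95% Poisson limit.

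Ras85D, the Ras gene itself, on chromosome arm 3R at 9510561 to 9513067, minus strand, also had 0 summits in all 3 lists. This 0 rests on the thresholded lists. The authors' joint ranked list holds a call at its promoter, with the summit 135 bp upstream of the Ras85D start and 125 bp from the start of the divergent gene Rlb1, at 9513027 to 9513376. Its signal was 114 and its score 1000, above the lowest score of 830 in the joint list, and it had a signal of 60.4 in replicate 1 and 56.7 in replicate 2. Of the 4818 calls of the joint ranked list on the arms with a score of at least 830, 119 (2.47%) are missing from the conservative list, and why was not tested. Counted in that ranked list at the same score, 4 of the 10 genes have a promoter summit, against 17.4% of all genes.

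Raf, the first kinase of the cascade, had 13 summits, the most of the 10. It lies on chromosome X at 2295466 to 2343870, plus strand, with start sites 44.8 kb apart. The strongest were Raf site 3, 2262 bp past the first start, with a signal of 839 (rank 76), and Raf site 5, 5230 bp past it, with 664 (rank 128). Raf site 3 had 400 in replicate 1 and 438 in replicate 2, and Raf site 5 had 354 and 311, so both were strong in both libraries. The other 11 had joint signals of 58.2 to 221.

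The Raf summits gathered at the 5′ end. Of the 13, 9 fell in a stretch of 12.8 kb around the first start, 12 fell between the start sites, and 0 fell in the 3.57 kb from the second start to the end of the gene. Neighbouring summits were 1695 bp apart at the median, from 205 to 11314 bp. Raf sites 7 and 8, the closest pair, fell in 1 peak in each library, with a signal of 105 in replicate 1 and 103 in replicate 2, so they may not be separate in either library's calls. Raf site 1, 1710 bp upstream, lay 345 bp from the start of CG2865, and Raf site 12 lay 177 bp from the start of lncRNA:CR34052, a noncoding gene within Raf. Of the 13 sites, 12 were in both own lists, and the weakest, Raf site 10, with 36.9 and 34.3, was in neither.

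The activator gene pnt had 6 summits, with signals of 64.2 to 215. It lies on chromosome arm 3R at 23290231 to 23346167, minus strand, with 3 start sites, and no summit lay at any of them. The strongest, pnt site 4, 19.65 kb past the first start, had 215 (rank 973), with 95.0 in replicate 1 and 110 in replicate 2. Pnt site 5 lay 1476 bp before the middle start and pnt site 6 lay 1698 bp past the innermost one. Pnt site 1, in the upstream flank, lies inside the DNA polymerase gene PolE1, and it was the weakest and in neither own list.

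The repressor gene aop had 8 summits over its window, 3 of them upstream of the gene. It lies on chromosome arm 2L at 2156484 to 2178754, minus strand. Aop site 7, in the intron 2126 bp before the inner start, had a signal of 411 (rank 320), with 178 in replicate 1 and 245 in replicate 2. Aop site 2, 1471 bp upstream of the first start, had 313, with 145 and 161. Its only promoter summit, aop site 8, lay 294 bp upstream of the inner start and was weaker, with 99.3 and 45.8 and 57.9 in the libraries. The first start, used as the gene's outer end, had no summit within 500 bp. Replicate 1's own list held 4 summits in the window and replicate 2's held 8, of which 1, at 2162657 to 2162976 (signal 57.1 in replicate 2), overlapped no site of the joint list.

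Side by side, the ETS genes placed their summits at different distances: aop had 1 of 8 at a promoter and 3 within 1.5 kb of its first start, while the 6 pnt summits lay at least 1476 bp from every start site of pnt. That difference was not tested.

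The windows of the 10 genes span 308.1 kb in sum and held 0.133 summits per kb. For each gene, the density was set against protein-coding genes whose body was at most 25% longer or 20% shorter, and given as the percentile of the gene among them, with ties shared. The median percentile of the 10 was 90.7, where that of the 13949 genes that had a percentile was 36.7. Because the 10 were chosen with earlier results of these data known, this contrast is a description only. Of the 10, 8 exceeded the median of their like-length genes. These were the 8 with any summit in the window, which 45.3% of all protein-coding genes had, so the count adds little to that share.

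Raf had 0.223 summits per kb (exact 95% Poisson interval 0.119 to 0.381, counting error only), where the median of its 248 like-length genes was 0.0197 and the highest was 0.168. In replicate 1 and in replicate 2 Raf had 11 summits, and again no like-length gene had a higher density. Only 9 genes of all had 13 or more summits: sbb, Tet, hth, Hr4, Raf, kirre, CG42594, CG1677 and CHES-1-like, names chosen after their values were seen.

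Aop had the highest density of the 10, 0.248 summits per kb (0.107 to 0.488), and 1 of its 431 like-length genes was higher. That order rests on the joint list and replicate 2, where aop had 8 summits and percentile 99.8. In replicate 1's own list aop had 4 summits and 0.124 per kb, with 13 like-length genes higher (percentile 97.0), below Raf at 0.188, spi at 0.155 and aos at 0.129. Drk stood at percentile 94.2 with 0.17 per kb, spi at 92.7 with 0.155, pnt at 91.8 with 0.091, aos at 89.6 with 0.129 and Egfr at 85.2 with 0.0841. Sos and Ras85D, with 0, were at percentiles 24.5 and 26.5. The highest lower bound among the 10 intervals was 0.119, for Raf, and the lowest upper bound was 0.198, for pnt, so all 10 intervals overlap. Such overlap is not a test of difference, and the order within the group was not tested. In the upper 50% of sites by signal pnt kept 1 of its 6 summits and fell to percentile 58.5, with 0.9 times the expected count. Leaving out summits at any promoter left spi with 0 summits and percentile 36.2. In the authors' other joint list drk had 2 summits and fell to percentile 80.0.

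**Figure D2:**
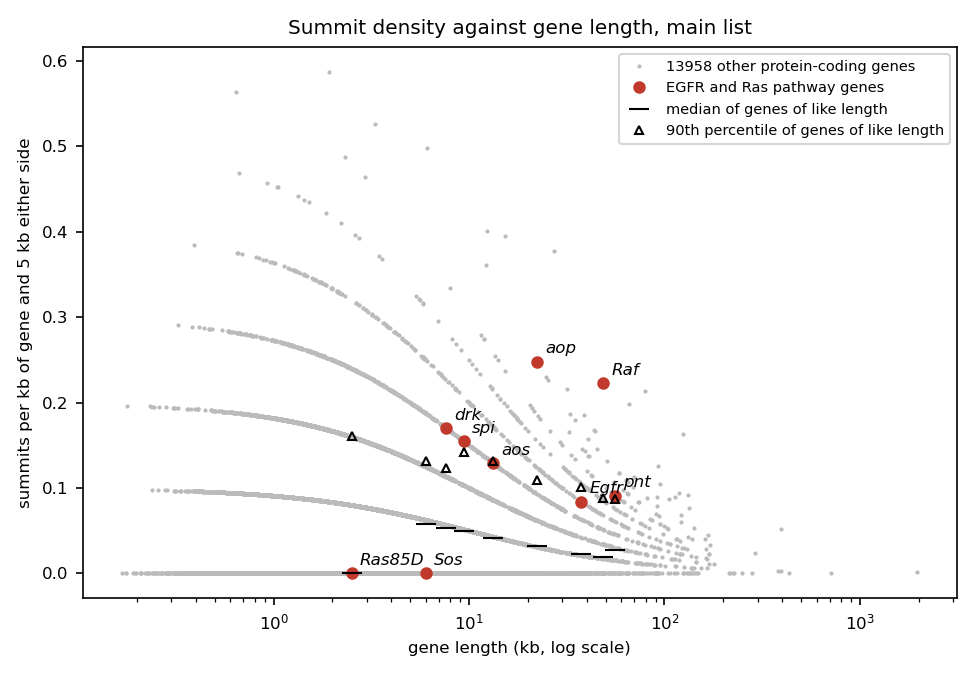
Summits per kb of gene and 5 kb flanks (y axis) against gene length (x axis, kb, log scale) in the conservative joint list for 13958 other protein-coding genes (grey) and 9 pathway genes (red), with the median (dash) and 90th percentile (triangle) of genes of like length. Raf at 0.223 and aop at 0.248 lie well above the triangles at their length, and Ras85D and Sos lie at 0.

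A test of each gene was made with a negative binomial model of the summit count, fitted to all 13968 genes with terms for window length and the X chromosome, and with Benjamini-Hochberg adjustment over all of them. It called 0.0% of genes at an adjusted p under 0.05, so none of the 10 passed, and 159 genes had an unadjusted p under 0.05. By the negative binomial model Raf had 5.35 times the expected 2.43 summits (unadjusted two-sided p = 0.00773, adjusted p = 1.0) and aop had 5.91 times the expected 1.35 (p = 0.0103, adjusted p = 1.0). Egfr, spi, aos, drk and pnt had 2.17 to 3.59 times the expected count, with unadjusted p from 0.165 to 0.332. A Poisson model, which allows no spread between genes beyond counting, called 13 genes (0.0931%), among them Raf with an adjusted p of 0.003 and none of the other 9.

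The joint list is thresholded on the irreproducible discovery rate, per the deposited descriptions, a measure of agreement between libraries, so calls in both libraries and similar signals were largely fixed by how the 41 sites were selected and are given as a description. Each of the 41 had a ranked call in both libraries, and 27 were in both own thresholded lists, 3 in replicate 1's only, 5 in replicate 2's only and 6 in neither. The 27 had joint signals of 99.3 to 839 with a median of 177, the 8 held by 1 library had 81.8 to 108, and the 6 held by neither had 58.2 to 88.5, so the sites missing from an own list were among the weaker ones. Replicate 1's own list held 30 of the 41 (73.2%, exact binomial 95% interval 57.1 to 85.8), compared with 60.8% of the other joint sites, and replicate 2's held 32 (78.0%, 62.4 to 89.4), compared with 65.9%. These intervals treat the sites as independent, but 13 of the 41 lay at Raf, and 12 of those were in both own lists. The log2 ratio of replicate 2's signal to replicate 1's had a median of 0.12 and ran from -0.55 to 0.81. Every site was within 2-fold. Across the 41 sites, as a description, the Spearman coefficient between the libraries was 0.904. Summits in the libraries lay 16 bp (replicate 1) and 12 bp (replicate 2) from the joint summit at the median.

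**Figure D3:**
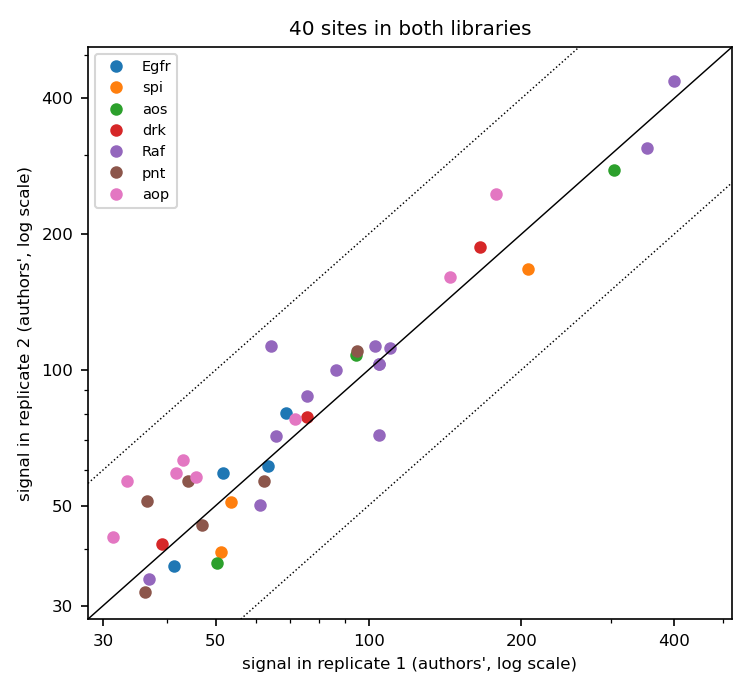
Authors' signal of 40 sites in replicate 1 (x axis, log scale) and replicate 2 (y axis, log scale), coloured by gene, with the line of equality (solid) and 2-fold lines (dotted). All 40 points lie within the 2-fold lines, and the 3 highest in replicate 1 are Raf site 3, Raf site 5 and aos site 3.

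In strength the 41 sites had a median signal of 127, where the other 4658 had 115, and 6 (14.6%) ranked among the first 500, compared with 10.6% of the others. The 6 were Raf sites 3 and 5, aos site 3, aop site 7, spi site 2 and drk site 2. All but spi site 2 are intronic by their gene's own annotation and more than 2 kb from its start sites. Drk site 2 lay nearer to the start of mars than to any start of drk.

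As a group the 41 sites were rich in A and T, about as rich as other sites. Not every printed sequence was: aop site 7 had 48.5% and spi site 2 had 54.5%. The 101 bp at the summit had a median of 64.4% A and T, from 44.6% to 85.1%, while the 101 bp centred 500 bp to either side had 55.0%. The corresponding medians for the other sites were 66.3% and 56.9%. A and T were above the site's own flanks in 36 of the 41 (87.8%), compared with 72.1% of the others. A run of at least 8 A or T was present in 33 of the 41 (80.5%) and in 74.8% of the other sites, and in the flank on the right in 31.7% and 49.5%.

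**Figure D4:**
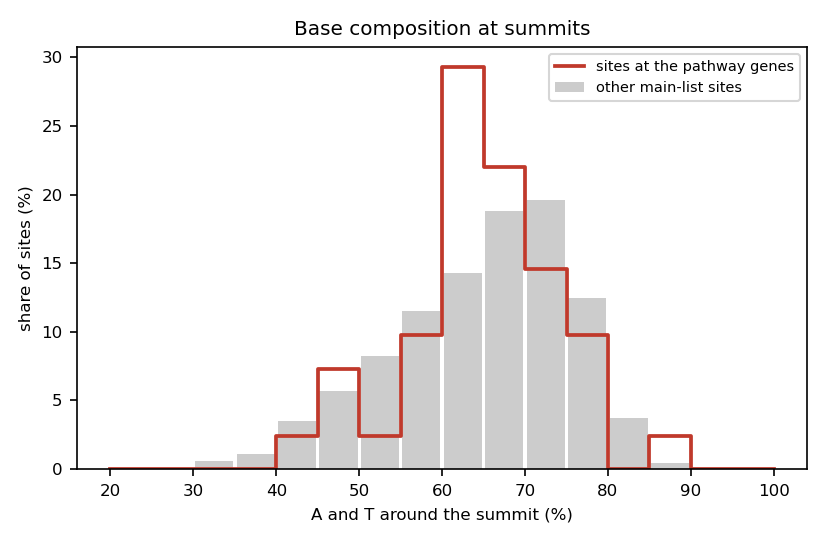
Share of sites (y axis, percent) by A and T content of the 101 bp around the summit (x axis, percent, bins of 5) for the 41 sites at the pathway genes (red line) and the other 4658 sites (grey bars). The red line peaks in the bin from 60 to 65%, and the medians are 64.4% and 66.3%.

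Known fly motifs were searched in the 101 bp on both strands as exact letters. AAAAAA was in 13 of the 41 sites (31.7%) and 34.2% of the others, overlapping the A and T runs, and GAGAG, the core bound by GAGA factor, was in 7 (17.1%), at spi, Raf and aop, and 10.6% of the others. In the 101 bp flank on the right GAGAG was likewise in 17.1% of the 41. The ETS core CCGGAA was in 1 site, of pnt, and AGGAAG, an ETS site of Pointed and Yan, was in 1 site, of aop, compared with 1.98% and 2.53% of the others. CAGGTA, the motif of the early activator Zelda, was in 2 (4.88%), at Egfr and pnt, and 1.78% of the others. TGAATGAA, the site of the Ras-regulated repressor Capicua, was in 0 of the 41 and 0.88% of the others. The insulator motif CGATA was in 5 (12.2%) and 13.5% of the others, and TATCGATA, the DRE, which contains it, was in 1, of drk. GGGGGG was in 2 and the E box CAGCTG in 1, of aop, while the E box CACGTG, the M1BP motif GGTCACA, the Grainyhead motif ACCGGTT, the AP-1 motif TGACTCA and the repeat CACACACA were in 0. A match is a description of these letters and not a binding site.

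Beyond the 10 core genes, 54 further genes of the pathway or of other receptor tyrosine kinase pathways were counted, in 5 lists by role. A promoter summit was at 11 of the 54 (20.4%), a gene body summit at 22 (40.7%) and a window summit at 32 (59.3%), where the shares of all protein-coding genes were 17.1%, 12.0% and 45.3%, so the promoter share was near that of all genes. The negative binomial model called 0 of all 13968 genes in either direction, and so 0 of the 54, which says nothing particular about them. By list, promoter summits were at 1 of 8 ligand and ligand-processing genes, 4 of 12 adaptors, GTPase regulators and cascade genes, 2 of 7 inhibitors, 2 of 9 nuclear effectors and targets, and 2 of 18 genes of other receptors. These shares were not matched for gene length. The median percentile among like-length genes was 56.0 over the 54, below the 90.7 of the 10 core genes and above the 36.7 of all genes. By list it ran from 39.7 for the other receptors to 63.9 for the adaptors and cascade.

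Among the adaptors and regulators, the adaptor gene Shc had the strongest promoter summit, with a signal of 1359, 130 bp from its start, followed by the small GTPase gene Rap1 (243) and csw (220), a tyrosine phosphatase gene whose summit lay 6 bp from a start. The MEK gene Dsor1 had 1 summit, in its window, with 96.8, and the ERK gene rl had 0; both were picked for their role after their values were seen. Cnk, a scaffold of the cascade, and Nf1, a GTPase activator of Ras, had 3 window summits each. For both genes 0 of these lay in the gene body and none at a promoter, so all were in the 5 kb flanks. The own lists had 3 and 3 for cnk and 2 and 2 for Nf1. Among the inhibitors, the phosphatase gene Mkp3 had a promoter summit of 328, 467 bp from a start. Edl, whose product antagonises Yan and Pointed, had one of 175 and a strongest site of 558. Socs36E, like edl, had 3 window summits. Among ligands and their processing genes, Krn, a ligand gene, had a promoter summit of 253, while vn, ru and S each had 4 window summits and no promoter summit. The own lists of replicates 1 and 2 held 0 and 1 window summits of vn, 2 and 5 of ru and 3 and 4 of S.

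Among nuclear effectors and targets, the corepressor gene gro had a promoter summit of 588, 129 bp from its start, and the repressor gene ttk had one of 85.6 and 4 window summits, where each library's own list had 1. Phyl, an EGFR target in the eye, had 3 window summits, none of them in replicate 1's list and 1 in replicate 2's. Among the other receptor pathways, stumps, an adaptor of the FGF receptors, and Pvf3, a ligand gene, had 5 window summits each. Stumps and the FGF receptor gene htl had promoter summits of 130 and 81.4. These lay 430 and 499 bp from a start, near the limit of 500 bp.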

How the data were processed

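Peaks of ChIP-seq against CG32772-eGFP were taken from the authors' lists for 2 biological replicates of 1 group. Per the descriptions deposited with the libraries, peaks were called on dm6 with a control DNA alignment as a second input, and the lists were thresholded with 1 further input file whose content is not given in the sources used here, nor are the aligner and caller. Each peak carries a score (scaled by the authors, 830 to 1000 in thresholded lists), a signal (the authors' value per peak, scaling not stated), a deposited −log10 q-value and a deposited summit offset in bases. Reads were not used here, so depth is unknown. The deposited lists are separate calls per library and joint calls; whether the joint calls pooled reads is not stated.

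Summits were assigned to 13968 protein-coding genes of Ensembl release 115 (assembly 6.54, dm6 coordinates) with Python 3.11.15, numpy 2.4.6 and pandas 2.3.3. The conservative joint list is the main one. Counts per gene were fitted with statsmodels 0.14.6 (negative binomial, log window length, X term), and intervals come from scipy 1.17.1 and cover counting error only. The count model was first run on simulated counts to check its slope and its false calls. That check set no minimum for the recovery of raised genes, so it does not show power. Percentiles count ties as shared. Named besides the 10 genes are the nearest coding genes of their sites and, per list, up to 3 genes with a promoter summit and up to 3 with most summits, by signal. The 10 genes, lists and motifs were chosen with earlier results of these data known. Alternatives were another joint list, each library alone, the upper 50% by signal, summits within 1 kb merged, other promoter widths, flanks and length matches, and a Poisson model. A further 4 were added after seeing the data: the joint ranked list at the same score, like-length genes of the same arm type, a fit without chromosomes 4 and Y, and the A or T run. Of the listed pathway symbols, 54 of 56 matched the annotation. Of the 10 genes, 1 is counted in totals but not reported here by itself.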

Additional observations from a re-analysis of the deposited data

Results flagged for a closer look

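The joint ranked list, which the main counts do not use, holds a call at the Ras85D promoter with a signal of 114 and a score of 1000, rank 2483 of that list, although the score minimum of the conservative list is 830 and that list lacks the call. It was singled out because it is a signal in data outside the main measurement. The summit lay 135 bp upstream of the Ras85D start and 125 bp from the Rlb1 start. The call was also in replicate 1's ranked list (signal 60.4, rank 2179) and replicate 2's (56.7, rank 2882), each with a score of 1000, and in neither own thresholded list. A further call in the Ras85D window, at 9515852 to 9516201 on chromosome arm 3R, had a signal of 84.5 and a score of 990 and lay at the starts of Kdm3, CG8176 and mRpL47. In replicate 1's ranked list the further call had a score of 376, below the minimum of 830 in that library's own list. In replicate 2's ranked list it had 832. Beyond these scores, why the thresholded lists lack the calls was not tested.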

How the results depend on the processing

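With a promoter of 200 bp, 1 of the 10 genes had a promoter summit (11.8% of all genes), and with 1000 bp 5 had one (19.8%). The upper 50% of sites by signal left 22 summits in the windows. The Poisson model called 1 of the 10, Raf, with an adjusted p of 0.003, and 13 genes in all; the negative binomial fits called 0 under every list and window tried. Without replicate 1 or without replicate 2, promoter counts stayed at 3, gene body counts at 8, genes above their like-length median at 8 and model calls at 0, while window summits ranged from 30 to 35. The percentile of spi fell to 36.2 when summits at any promoter were left out. In the joint ranked list at the same score, added after seeing the data, Ras85D was at percentile 88.4. Under all alternatives together, 4 summary values moved, as given above, and 47 did not. Of the single-gene values, 16 moved, 1 reversed and 1 passed the threshold anew, and 312 stayed within the counting interval, within 10 percentile points or on the same side of the threshold. Counts per gene within those limits still changed: without replicate 2, aop went from 8 to 4 summits and Egfr from 4 to 2, and in the upper 50% by signal spi went from 3 to 1. No paired analysis was possible because there is 1 group. The small counts per gene and the unknown depth limit every density, and a gene within another gene shares its sites. The causes of these moves were not tested.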
